A study of Ovis aries with 16 samples.

Results

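Small nuclear RNAs (snRNAs) were followed here across 16 small RNA libraries, made from the liver and a thigh muscle of 8 adult sheep. Of 1148 snRNA rows deposited (4920 rows over all 4 RNA tables), 258 had at least 1 read. The 54 rows described below were chosen because their mean deposited value reached 5 over the 8 liver libraries or over the 8 muscle libraries. In liver 53 of them passed that level and in muscle 34, with 33 passing in both tissues, 20 in liver only and 1, LOC114109175, in muscle only. The levels that chose them are therefore a description and not a finding.

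The animals were female Suffolk sheep in 2 groups of 4. Mothers of the BPA animals (910, 918, 977 and 984) received bisphenol A, a plastics monomer with oestrogen-like activity, under the skin at 0.5 mg per kg per day from gestation day 30 to 90. Mothers of the control animals (902, 908, 924 and 928) received the corn oil vehicle over the same days. All offspring were sampled at about 21 months, after a 48-hour fast, and 24 hours had passed since the later of 2 prostaglandin F2α injections spaced by 11 days. Left-lobe liver and vastus lateralis muscle were taken, and each library is 1 tissue of 1 animal. The exposure ended before birth and both groups had the same hormone treatment and fast, so each comparison is of adult tissue long after exposure.

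The spliceosome, which removes introns from messenger RNA precursors, is built around snRNAs bound by proteins. U1 pairs with the start of an intron and U2 with its branch point, and U4, U5 and U6 then join before the intron is removed. U11, U12, U4atac and U6atac do the same work for a rare class of introns, and U7 processes the ends of histone messages and does not act in splicing. Mammalian genomes hold many gene copies and even more pseudogenes of these RNAs, often in tandem arrays.

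The reference gene table (RefSeq, sheep assembly ARS-UI_Ramb_v3.0) held 42 of the 54 loci, all with the biotype snRNA and none with a class name. The label spliceosomal could thus be checked no further than the biotype, and the loci are grouped by length. There were 19 loci of 161 to 165 nt, 11 of 191 nt, 3 of 141 nt, 5 of 116 to 117 nt and 1 each of 150, 133, 126 and 62 nt, while 12 had no length. As background, mammalian U1 is near 164 nt, U2 near 191, U4 near 141, U5 near 116, U12 near 150, U11 near 133, U6atac near 126 and U7 near 62 nt. Length alone does not name a class, and no sequence was analysed here. The length of U6, 107 nt, was the most frequent in the table with 449 rows, of which 92 had reads, yet none reached the level of 5. Their highest tissue mean was 1.72 and no single row had more than 8 reads over the 16 libraries.

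Many of the 54 rows may not be separate measurements. Identical values in all 16 libraries were found for 12 rows in 6 sets, and near-identical read profiles reduced the 54 loci to 31 groups. The largest group had 9 loci of 163 to 164 nt or no length, led by LOC114111409, with 4274 to 4577 reads each over the 16 libraries. In a single library their counts differed by at most 61 reads. A second group had 7 loci of 191 nt or no length, led by LOC114117117, with 1302 to 1341 reads each. Another was the trio LOC114109164, LOC114109197 and LOC114109241, which had no length and 14314 to 15277 reads each. In all but 2 of these groups the counts differed by less than independent counting would give (mean chi-square of a pair per library at most 0.75, where 1 is the value for independent counting), and in the other two it reached 1.41 and 3.40. How reads that map to several copies were counted is not given, so counts of loci below may count some reads more than once. Some copies lie together in the gene table, where 10 loci of 191 nt formed 1 run and 8 of 163 to 164 nt another, with gaps of at most 500 kb, and LOC114117060 and LOC114117093 lay in a run of 4. The identical pair LOC114118780 and LOC114108901 did not share a run.

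Depth differed between the liver groups in opposite directions for the 2 kinds of RNA. Reads of all snRNAs numbered 29981 to 58486 in control livers, 877 to 3865 in BPA livers and 1135 to 4515 in muscle, and the 54 loci held 96.02 to 99.89% of them. Reads of miRNAs numbered 94393 to 240815 in control livers, 578150 to 1383538 in BPA livers and 471691 to 1044886 in muscle. Each deposited table had its own scale: for snRNAs a single read was worth 0.19 to 0.33 in control livers and 1.99 to 7.23 in BPA livers. The labels also give each library a code. Codes up to 79 covered 1 control liver and 2 BPA livers, and above 79 no stretch of codes mixed the treatments in liver. All control muscles were coded before all BPA muscles, so in muscle the coding and the treatment cannot be told apart.

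Control livers held far more snRNA reads per miRNA read than any other library. Per 100 miRNA reads, the 54 loci together gave 41.1, 12.4, 26.2 and 37.0 in control livers 902, 908, 924 and 928. In BPA livers 910, 918, 977 and 984 they gave 0.271, 0.158, 0.183 and 0.133. All 4 control livers lay above all 4 BPA livers, with means of 29.2 ± 12.8 and 0.186 ± 0.060 (SD, n = 4 each; two-sided exact permutation p = 0.0286, the smallest that 70 assignments allow, and 0.0571 after Benjamini-Hochberg adjustment over both tissues). Muscle gave 0.263 ± 0.040 in controls and 0.372 ± 0.251 in BPA animals, and the groups overlapped (exact permutation p = 0.629, n = 4 each). The highest muscle library was BPA 984 at 0.739. In bulk tissue fewer cells of a type and less RNA per cell cannot be told apart.

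**Figure D1:**
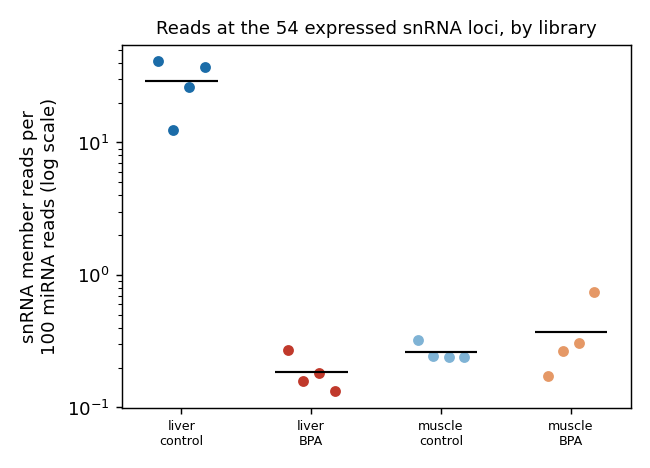
Reads at the 54 snRNA loci per 100 miRNA reads (log axis) in each library, by tissue and treatment; points are libraries and bars are group means. Control livers lie between 12.4 and 41.1 and all other libraries below 1.

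The size of the gap depended on what the snRNA reads were set against, and in liver its direction did not. Per 100 snoRNA reads control livers gave 505 ± 177 reads at these loci and BPA livers 11.1 ± 4.34 (exact permutation p = 0.0286, n = 4 each). Per 100 lncRNA reads the same means were 145 ± 59.2 and 1.008 ± 0.246 (exact permutation p = 0.0286, n = 4 each). In muscle the snoRNA denominator turned the order, from 41.9 ± 6.39 for controls to 19.7 ± 6.84 for BPA animals (exact permutation p = 0.0286, n = 4 each), so no direction for total snRNA in muscle holds across denominators. Within library codes up to 79 there was 1 control liver, at 41.1 reads per 100 miRNA reads, and 2 BPA livers, at 0.183 and 0.133. The part of the code order in the liver difference was not tested beyond these values.

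The make-up of the snRNA reads also differed, and this needs no scale across tables. Loci of 161 to 165 nt took 73.6, 83.4, 48.1 and 81.2% of the 54 loci's reads in the control livers and 43.8, 33.4, 38.1 and 30.7% in the BPA livers. Loci of 191 nt took 3.12, 0.594, 0.192 and 0.337% in control livers against 34.1, 37.3, 38.2 and 43.9% in BPA livers. Neither class overlapped between the groups. The difference was -35.1 percentage points for 161 to 165 nt and 37.3 for 191 nt (exact permutation p = 0.0286 for each, n = 4 per group, 0.0735 after Benjamini-Hochberg adjustment over 18 tests of 9 classes in 2 tissues). The same exact p was reached by the 141, 116 to 117, 150, 133 and 126 nt classes, all with larger shares in BPA livers. No class passed the adjusted threshold of 0.05. An exact p of 0.0286 is the smallest that 70 assignments allow. It gave 0.0735 after adjustment here however large the difference, so the failure to pass says nothing about size.

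**Figure D2:**
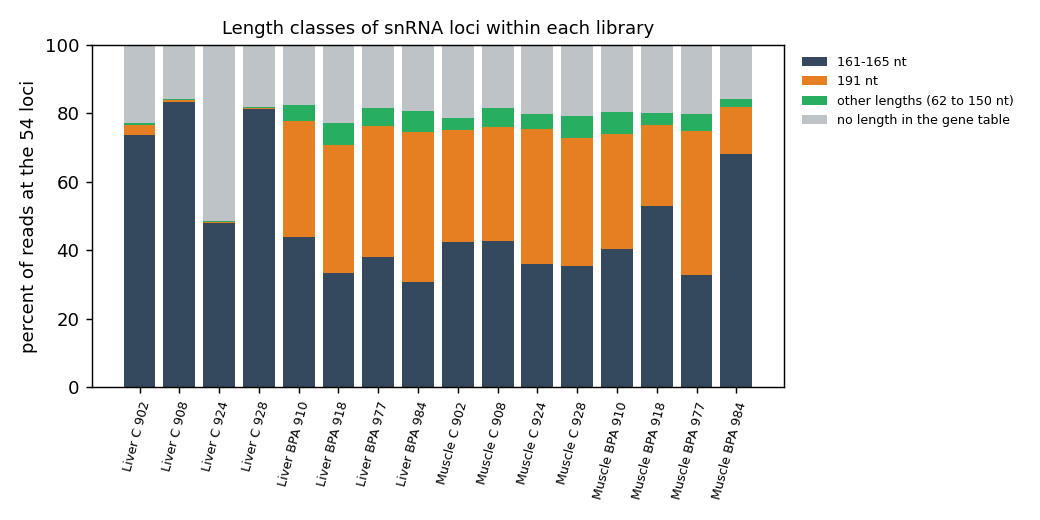
Percent of the reads at the 54 loci taken by each length class in each of the 16 libraries (C, control), as stacked bars to 100%. The 191 nt class is at most 3.12% in the 4 control livers and at least 13.7% in the other 12 libraries.

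Muscle resembled BPA liver in this make-up, a description only since each tissue was chosen and scaled alone. In control muscle the 161 to 165 nt loci took 35.4 to 42.7% and the 191 nt loci 32.8 to 39.5%. In BPA muscle the ranges were 32.7 to 68.1% and 13.7 to 42.2%, and the groups overlapped in all 9 classes (smallest exact permutation p = 0.314, n = 4 each). Expressed as 161 to 165 nt reads per 191 nt read, control livers stood at 23.6, 140.5, 250.8 and 241.0 and BPA livers at 1.29, 0.894, 0.998 and 0.700. Control muscle ranged from 0.911 to 1.30. BPA muscle 910, 918, 977 and 984 stood at 1.21, 2.24, 0.775 and 4.96, so 918 and 984 lay above every control muscle and 977 below.

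Nearly all of the excess in control liver lay in the loci of 161 to 165 nt, the length of U1, and in the trio without length. Per 10000 miRNA reads the 161 to 165 nt class gave 3026, 1033, 1258 and 3001 reads in the controls' livers and 11.9, 5.26, 6.96 and 4.07 in those of BPA animals, a ratio of means of 295 (exact permutation p = 0.0286, n = 4 each, adjusted 0.103 over 18 tests, a scale added after the data were seen). LOC114115462, of 164 nt, had the most reads, with 8249, 7166, 9882 and 11625 in control livers. BPA livers had 324, 56, 122 and 78, although those libraries held more miRNA reads. Muscle had 66, 69, 65 and 68 reads in controls and 53, 190, 69 and 447 in BPA animals, so the livers of control animals stood alone and BPA muscle 984 was the next highest.

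LOC114117060, the second most abundant, had 5457, 4757, 6277 and 7680 reads in control livers against 355, 48, 107 and 36 for BPA. Its neighbour LOC114117093, of 165 nt, followed it, and their counts differed by at most 125 reads in any library. The 9-locus group, given by LOC114111409, had 1039, 1076, 695 and 1118 reads in control livers against 78, 20, 20 and 14 in BPA livers. LOC114115947 had 1908, 593, 662 and 1588 against 27, 2, 6 and 3. In every one of the 19 loci of this class all 4 control livers exceeded all 4 BPA livers, in reads and per miRNA read. Over all 226 snRNA rows with reads in liver, 17.3% were higher in every control liver per miRNA read and 0.0% in every BPA liver, against 30 and 0 of the 54 loci. In reads as such the same held for 14.6% of the rows and 28 of the 54 loci. These percentages are over rows that include the loci.

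**Figure D3:**
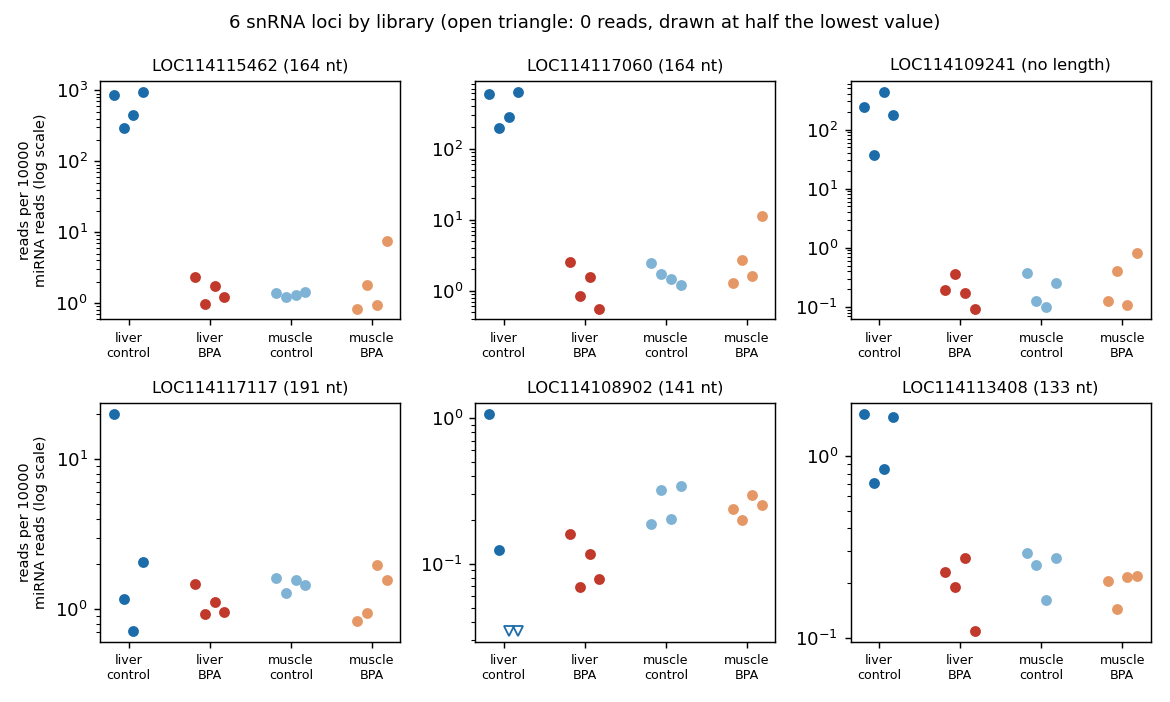
Reads per 10000 miRNA reads (log axis) in each library at 6 snRNA loci of 5 lengths or none, by tissue and treatment; each point is 1 library and open triangles are libraries with 0 reads. LOC114115462, LOC114117060 and LOC114109241 separate the control livers from all others, whereas for LOC114117117 control liver 902 alone is high.

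Within the class the order of loci was not the same in every group. Counting near-identical loci once, LOC114115462 took 51.7 ± 2.96% of the 161 to 165 nt reads in control livers, 45.0 ± 8.37% in BPA livers, 29.9 ± 5.68% in control muscle and 26.9 ± 4.52% in BPA muscle (SD, n = 4 each). LOC114117060 took 33.8 ± 1.42, 35.5 ± 7.19, 36.4 ± 4.56 and 42.1 ± 5.17% in the same order and was first in muscle. The 9-locus group took 5.67 ± 1.65% in control livers, 11.1 ± 3.63% in BPA livers and 17.1 ± 1.37% in control muscle. LOC114115947 went the other way, at 6.54 ± 3.39% in control livers, 2.26 ± 0.729% in BPA livers and 2.49 ± 0.781% in control muscle. These shares were not tested.

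The trio without length behaved like the 161 to 165 nt loci but was uneven among the controls. LOC114109241 had 2312, 891, 9717 and 2142 reads in control livers against 27, 21, 12 and 6 in BPA livers. Control liver 924 thus held several times the reads of any other, and loci without length took 51.6% of its reads against 15.8 to 23.0% in the other control livers. LOC114109164 and LOC114109197 had 9457 and 9455 reads in that library. In muscle LOC114109241 had 7 to 18 reads in 3 control libraries, 5 in control 924, and 8, 42, 8 and 49 in BPA animals, so the excess of animal 924 was in its liver library.

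Loci of 191 nt, the length of U2, had no excess common to all 4 control livers. LOC114110196 had 197, 40, 25 and 38 reads in control livers against 217, 63, 86 and 63 in BPA livers. Muscle had 79 to 110 reads in controls and 94 to 202 in BPA animals. LOC114117117, which stands for the 7-locus group, had 188, 28, 16 and 25 against 205, 54, 77 and 61, so control 902 lay among the BPA livers and the other 3 controls below them. Per 10000 miRNA reads the class stood at 128, 7.35, 5.01 and 12.5 for the controls and at 9.23, 5.88, 6.98 and 5.82 for the BPA animals, and the groups overlapped (exact permutation p = 0.314, n = 4 each, adjusted 0.514). The median was 9.90 in control and 6.43 in BPA livers. Control and BPA muscle stood at 9.33 ± 0.996 and 8.80 ± 3.34. None of the 11 loci separated the liver groups in reads or per miRNA read. Within library codes up to 79, however, control liver 902 stood at 128 per 10000 miRNA reads and BPA livers 977 and 984 at 6.98 and 5.82. There the log2 fold changes of the 11 loci with the miRNA size factors ran from -5.86 to -4.15 (1 control, no test). The 10-locus run at a single place in that table included the rarely read LOC114117118 (23, 2, 3 and 1 reads in control livers against 11, 6, 2 and 2 in BPA livers) and LOC114117119 beside the abundant copies.

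The shorter classes had few reads in every library. Loci of 141 nt, the length of U4, were LOC114108902 with 10, 3, 0 and 0 reads in control livers against 22, 4, 8 and 5 in BPA livers, and the identical pair LOC114118780 and LOC114108901 with 9, 6, 0 and 4 against 23, 6, 7 and 4. Per 10000 miRNA reads this class gave 1.06 ± 1.31 in control and 0.323 ± 0.123 in BPA livers, overlapping, and 0.726 ± 0.259 and 0.716 ± 0.118 in control and BPA muscle. Loci of 116 to 117 nt, the length of U5, summed to 27, 5, 26 and 4 reads in control livers against 33, 12, 13 and 13 in BPA livers. Per 10000 miRNA reads that was 1.14 ± 1.22 against 0.209 ± 0.021, overlapping (exact permutation p = 0.0571, adjusted 0.171). The highest of them, LOC114110971, had 5, 1, 1 and 2 against 12, 4, 3 and 3, too few for the reads to show a difference.

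Among the loci of lengths known from the rare-intron spliceosome, 2 were lower per miRNA read in BPA liver. LOC114113408, of 133 nt like U11, had 16, 17, 19 and 20 reads in control livers against 32, 11, 19 and 7 in BPA livers. Per 10000 miRNA reads that was 1.22 ± 0.517 against 0.202 ± 0.071, without overlap (exact permutation p = 0.0286, n = 4 each, adjusted 0.103). LOC114114287, of 150 nt like U12, had 17, 8, 16 and 14 against 16, 9, 2 and 4 reads, or 0.999 ± 0.630 against 0.091 ± 0.056 per 10000 miRNA reads, also without overlap (same exact p and adjusted p). LOC114113408 and LOC114114287 reached the level of 5 through the BPA livers alone, so their p-values are given as a description. LOC114113424, of 126 nt like U6atac, had 4, 1, 2 and 4 reads in control livers against 18, 11, 6 and 12 in BPA livers. It was the only one of the 226 rows (0.442%) with more reads in every BPA liver than in any control liver. Since it reached the level of 5 through the BPA livers alone (mean deposited value 49.3, against 0.62 in control livers), nothing is read from that. Per miRNA read it overlapped (0.221 ± 0.184 and 0.149 ± 0.049 per 10000). LOC114114213, of 62 nt like U7, had 22, 32, 18 and 33 reads in control livers against 3, 1, 3 and 3 in BPA livers. It stood 55.4-fold higher in control livers per miRNA read (1.79 ± 0.877 against 0.032 ± 0.015 per 10000), and 0 to 4 reads were found in each muscle library.

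On the deposited scale the directions were split by length. limma on log2(deposited value + 1) called 25 loci higher and 20 lower in BPA liver and left 8 uncalled of 53 tested (Benjamini-Hochberg adjusted p under 0.05). The tested rows are the members themselves, so the background is the same count, with 47.2% called higher and 37.7% lower. Of 19 loci of 161 to 165 nt, 14 fell and 5 did not pass, and of 11 loci of 191 nt, 10 rose and 1 did not pass. All loci of 141, 133, 126, 150 and 116 to 117 nt rose, LOC114114213 of 62 nt did not pass, and of 11 loci without length 4 rose and 6 fell. Since 19 loci reached a mean of 5 in the BPA livers alone, and 17 of these were called higher, the count of rises is no support for a rise. These 19 include every locus of 141, 133, 126, 150 and 116 to 117 nt and 5 of the 11 loci of 191 nt.

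LOC114115462 fell by 2.20 ± 0.31 on the log2 scale (SE, limma adjusted p = 9.3e-05) and LOC114115947 by 3.38 ± 0.51 (limma adjusted p = 1.4e-04). LOC114117060 and LOC114109241 fell by 1.94 ± 0.44 and 3.36 ± 0.79 (limma adjusted p = 0.0023 and 0.0028). The fall of the 9-locus group lay near the threshold, from -1.16 to -0.99 with limma adjusted p of 0.0254 to 0.0384, and 0 of its 9 loci passed without control 908, control 924, control 928 or BPA 977. None of the 9 passed with no filter or with reads thinned to the shallowest library, where the log2 fold changes shrank to between -0.69 and -0.11 (limma adjusted p from 0.238 to 0.805). Among rises, LOC114110196, which passed the level of 5 in both liver groups, reached 4.81 ± 0.51 (limma adjusted p = 1.6e-05). LOC114113424, LOC114108902, LOC114118780, LOC114110971 and LOC114113408 passed it through the BPA livers alone, so their log2 fold changes of 4.85, 4.45, 4.16, 3.77 and 3.54 are given as a description with no test.

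These rises did not hold when the same reads were scaled by the size factors of the miRNA table. limma then called 0 loci higher and 29 lower of 53 (0.0 and 54.7% of those tested), and the median log2 fold change of all tested loci moved from 0.59 to -4.75. All 19 loci of 161 to 165 nt fell, with log2 fold changes from -9.30 to -4.75. None of the 11 loci of 191 nt passed, with log2 fold changes from -1.66 to -0.63 (limma adjusted p from 0.106 to 0.650). LOC114110196 stood at -1.46 ± 0.84 (limma adjusted p = 0.143). LOC114113424, LOC114113408 and LOC114114287 stood at -0.17 ± 0.82, -2.41 ± 0.71 and -3.01 ± 0.71. They passed the level of 5 through the BPA livers alone, so these values are a description with no test. LOC114114213 fell by 4.80 ± 0.71 (limma adjusted p = 1.4e-10). The equal SE of 0.71 shows that it came largely from the trend over loci and not from each locus's own spread. Such small limma p-values are therefore not read for a single locus. By exact permutation LOC114114213, the only 62 nt locus, had p = 0.0286 per miRNA read (n = 4 each, adjusted 0.103). On both scales every 161 to 165 nt locus lay below every 191 nt locus, while the position of zero differed.

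**Figure D4:**
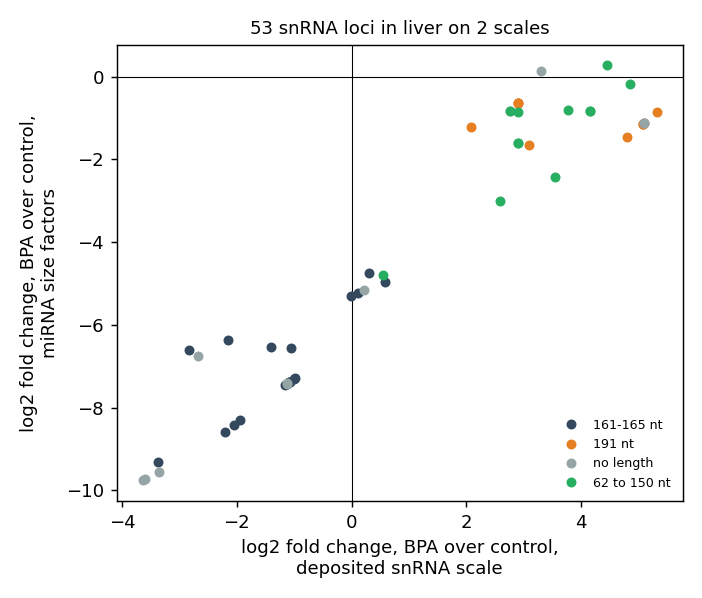
Log2 fold change of BPA over control liver for 53 snRNA loci, on the deposited snRNA scale (x axis) and with the size factors of the miRNA table (y axis), coloured by length; points are loci and near-identical loci overlie each other. Loci of 191 nt run from 2.08 to 5.32 on the first scale and from -1.66 to -0.63 on the second.

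No locus was called in muscle. limma tested 34 loci there and called 0 higher and 0 lower (0.0%), with 0 at an unadjusted p under 0.05, on the deposited scale, and 0 with the miRNA size factors. Log2 fold changes ran from -0.52 to 0.58 with a median of 0.12. Loci of 161 to 165 nt had positive values in 14 of 15 and loci of 191 nt negative values in 6 of 6, none beyond its test. LOC114117060 stood at 0.51 ± 0.56 and LOC114117117 at -0.49 ± 0.33 (limma adjusted p = 0.784 and 0.723). Without BPA muscle 977, limma called 8 rows: the 7-locus group of 191 nt reads was lower, at -0.81 to -0.78 (limma adjusted p = 0.0389), and LOC114109186, which is not one of the 54, was higher at 0.82 (limma adjusted p = 0.0499). The 7 rows hold near-identical reads but entered the adjustment as separate tests (unadjusted limma p from 0.0054 to 0.0078). Both adjusted p-values depend on counting that profile 7 times, so no change is read from these calls.

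Of 42 loci tested over both tissues, limma called an interaction for 34 (muscle minus liver, 18 higher and 16 lower, 42.9% and 38.1%). Those called lower include loci of 141, 133, 126, 150 and 116 to 117 nt, and LOC114117118 of 191 nt. In liver these reached the level of 5 through the BPA livers alone, so their interactions are a description with no test. The 2 comparisons come from the same animals and the interaction uses both. LOC114115947 and LOC114115462 had interactions of 3.18 ± 0.62 and 2.36 ± 0.48 (limma adjusted p = 2.7e-04 and 3.6e-04). LOC114117116, a copy in the 7-locus group, and LOC114110196 had -5.56 ± 0.68 and -5.05 ± 0.62 (limma adjusted p = 2.0e-06 for both). With the animal as a block 10 loci were higher and 16 lower. With the miRNA size factors 28 were higher and 0 lower (66.7% and 0.0%), and LOC114117116 turned to 0.81. Of 18 tested loci of 161 to 165 nt, 12 were called higher on the deposited scale, 6 with the animal block, 4 with thinned reads and 18 with the miRNA size factors. The copy groups may count some reads more than once. Of 7 tested loci of 191 nt, LOC114117118 included, 7 were called lower on the deposited scale and 0 in either direction with the miRNA size factors.

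**Figure D5:**
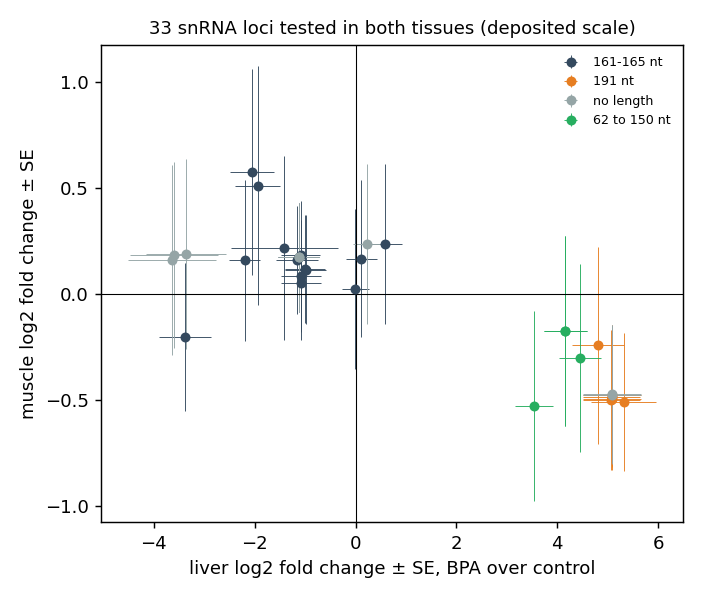
Log2 fold change of BPA over control in liver (x axis) and muscle (y axis) for the 33 snRNA loci tested in both tissues, deposited scale, with SE bars. Liver values run from about -3.64 to 5.32 and muscle values from -0.52 to 0.58, with loci of 161 to 165 nt mostly at upper left and loci of 191 nt at lower right.

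At the edge of the rule, LOC114109175 had the lowest level kept, with a mean of 5.04 in muscle, followed by LOC114117388 and its copy LOC114117389 at 5.30 in liver. Just outside lay LOC114112565 at 4.89 and LOC114110972 at 4.81 in liver and LOC114109186 at 4.80 in muscle. LOC114109175 had 9, 14, 5 and 11 reads in control livers against 4, 0, 1 and 0 in BPA livers, where it was not tested. Kept and left-out loci at this edge differ by less than the worth of 1 read in a BPA liver.

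Cell type markers in the miRNA table separated the 2 tissues. The 2 of 4 liver markers found, MIR194 and MIR148A, summed to 45135 to 61597 deposited units in control livers, 40787 to 66109 in BPA livers and at most 2028 in muscle. The 1 of 5 muscle markers found, MIR133, reached 244661 to 373488 in muscle and at most 717 in liver. The 3 of 5 epithelial markers found, MIR200A, MIR200B and MIR200C, summed to 482 to 1367 in control livers and 1504 to 1965 in BPA livers, without overlap. The leukocyte marker MIR150 (1 of 4 found) was at 199 to 549 in control and 231 to 493 in BPA livers, and the endothelial marker MIR221 (1 of 2 found) at 345 to 730 and 435 to 703. No erythroid marker of 3 was found. The part of cell make-up in the snRNA difference was not tested.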

How the data were processed

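The authors deposited 4 tables of normalized counts (miRNA, snoRNA, snRNA, lncRNA), a signal obtained, as the values show, from read counts scaled by 1 factor for each library and table. Per the submitters' processing notes, cutadapt 3.2, STAR 2.6.0c and featureCounts 1.6.1 were used, in roles not given in the sources used here, as are the genome build, annotation and normalization tool. In every library all values were whole multiples of 1 step (tolerance 0.001), and reads were recovered by dividing by it. How reads that map to several copies were counted is not given. The tables hold no sequenced total, so depth is known only as assigned reads.

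The members and lists were chosen with earlier results of these data known. limma 3.58.1 (R 4.3.3, mean-variance trend) was fitted to log2(deposited value + 1) of snRNA rows with a mean of at least 5, per tissue and, for the interaction, over all 16 libraries, with Benjamini-Hochberg adjustment and a threshold of 0.05. The fold changes understate the change of low loci. Reads per 100 miRNA reads and class shares were compared by two-sided exact permutation. Near-identical loci had totals within 10% and a correlation above 0.99. The script was tested on simulated data. Alternatives were the pseudocount, no filter, miRNA size factors, collapsed copies, thinned reads, library codes, the animal block, other denominators and leaving out each library. Libraries pair by animal number, which the labels give, although the deviations of paired libraries correlated by only -0.47 to 0.75 over 33 loci. Named loci were those with the most reads in each class, the smallest p in each direction, the largest copy groups and those nearest the threshold. A list of other snRNA-related genes (names of spliceosomal, scaRNA, 7SK and similar RNAs) matched 0 names in the files, since snRNA rows carry only locus numbers. Promoters and sequences were not analysed here, and no coordinates are given since the build is unknown.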

Additional observations from a re-analysis of the deposited data

Results flagged for a closer look

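Among 144 groups of 4 libraries, 13 had 1 library far from the others (gap to the nearest library over the whole range, above Dixon's 95% critical value, which chance gives in about 1 of 20 groups). Near-identical loci may share reads and are not taken as separate cases. The values in parentheses are that gap as a part of the range. Control liver 902 stood high in the deposited values of LOC114110196 (0.884), LOC114117117 (0.910), LOC114117116 (0.906) and the near-identical LOC114117112, LOC114117113 and LOC114117114 (0.900 each), and in the share of reads at 191 nt loci (0.863). Control liver 924 stood high for LOC114109241 (0.935), LOC114109164 (0.940) and LOC114109197 (0.940). Control muscle 902 stood high in reads of the 54 loci per 100 miRNA reads (0.919). BPA muscle 977 stood high for LOC114110971 (0.887), and BPA muscle 984 low in the share of loci without length (0.837).

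The BPA effect differed between muscle and liver by a tested interaction (limma, deposited scale) for 34 loci. On the log2 scale it was 3.18 for LOC114115947, 2.36 for LOC114115462, 2.63 for LOC114117093, 2.45 for LOC114117060 and 3.81 for LOC114109197. It was -5.56 for LOC114117116 and LOC114117114, -5.05 for LOC114110196, -5.43 for LOC114113424 and -4.75 for LOC114108902. With the miRNA size factors the first set kept its direction, LOC114117116, LOC114117114 and LOC114110196 turned, and LOC114113424 and LOC114108902 stood at -0.30 and -0.43 and were no longer called. In liver the last 2 loci passed the level of 5 through the BPA livers alone. The same held for LOC114117118 and for the other loci of 141, 133, 150 and 116 to 117 nt among the 34. The interactions of all these loci are a description with no test.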

How the results depend on the processing

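Most values depend on the scale. With miRNA size factors 0 loci were higher in BPA liver, with LOC114110196 at -1.46, LOC114117117 -1.14, LOC114117118 -1.66, LOC114118780 -0.82, LOC114110971 -0.80, LOC114115961 -1.60, LOC114115963 -0.86, LOC114114287 -3.01, LOC114113408 -2.41, LOC114113424 -0.17, LOC114114213 -4.80 and LOC114117112 -1.13. In the interaction 28 were then higher and 0 lower, with LOC114117116 at 0.81, LOC114110196 at 1.38 and LOC114117114 at 0.81. Against 25 higher and 20 lower in liver, collapsing near-identical profiles, which leaves fewer rows, gave 14 and 9. Liver loci called lower numbered 10 with no filter, 7 with thinned reads and 13 with the code range as a covariate. For the 9-locus group that covariate gave log2 fold changes of -1.45 to -1.24, the same as within codes up to 79 alone. Above 79 no stretch of codes mixed the treatments, so the covariate fit rests on the same 1 control. Its count of 13 is a description and not a separate adjustment for the code order. Within codes up to 79 (1 control, assumed to vary like the BPA livers) 1 was lower, and with miRNA size factors 0 higher and 52 lower. Leaving out 1 library gave 19 to 28 higher and 9 to 19 lower in liver (10 without control 908 or 924, 9 without control 928 or BPA 977) and 0 to 1 higher and 0 to 7 lower in muscle. The 7 lower in muscle are 1 group of near-identical loci. In the interaction, leaving out 1 animal gave 12 to 19 higher and 16 lower. Interactions called higher numbered 8 with no filter, 7 with thinned reads, 7 with collapsed profiles and 10 with the replicate block of animals, and those lower 28, 15, 9 and 16. Against snoRNA reads the BPA over control ratio of the total was 0.0219 in liver (exact permutation adjusted p = 0.0286, n = 4 each) and turned to 0.469 in muscle. The cause was not tested. The planned edgeR and DESeq2 fits of snRNA reads were not run, since too few low values per library were left to check the recovered reads.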
